A study of Mus musculus with 3 samples.

Results

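Myeloid cells of mouse bladder and of bladder assembloids were selected by their transcripts from 3 single-cell libraries, and 154 of 23925 mouse cells met the rule. A mouse cell was a barcode with at least 90% of its unique molecular identifiers (UMIs, one per captured transcript) on mouse genes, at least 500 mouse genes and under 20% mitochondrial UMIs. A myeloid cell had at least 1 UMI of Ptprc, the pan-leukocyte antigen CD45. It also had at least 10 UMIs per 10000 mouse UMIs over Lyz2, Csf1r, Cd68, C1qa, Tyrobp and Fcer1g, with at least 3 of these 6 genes detected, and under 10 per 10000 of the fibrillar collagen genes Col1a1 and Col1a2. These 9 genes chose the cells, so their levels are given as a description only.

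Bladder macrophages are phagocytes of the wall beneath the urothelium, and monocytes and dendritic cells from blood join them there. Macrophages and dendritic cells load peptides onto MHC class II molecules for CD4 T cells, clear dying cells through receptors such as TREM2, digest the cargo in lysosomes, and release chemokines that recruit further leukocytes. Survival of most macrophages depends on the receptor CSF1R, whose ligands come from neighbouring cells.

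The first group was adult bladder of wild-type C57BL/6 mice aged 8 to 9 weeks, dissociated from a pool of 8 bladders. The other two groups were bladder assembloids 1 day and 7 days after reconstitution, each a pool of 3 assembloids. An assembloid is an organoid rebuilt from several cell compartments. The sources used here do not say which cells went into these, nor their strain and donor age. Each group had 1 library, made from polyA RNA with version 3 of the 10x Genomics 3′ single-cell reagents. With 1 library per group no test between groups was possible, and cells of a library are not replicates. Intervals in parentheses cover counting error only.

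The share of mouse cells that met the rule was close in the 3 libraries, and its order depended on depth and on the Ptprc condition. It was 44 of 7013 mouse cells in bladder, or 0.627% (exact Clopper-Pearson 95% interval 0.456 to 0.841%). The 1-day library held 56 of 8538, or 0.656% (0.496 to 0.851%), and the 7-day library 54 of 8374, or 0.645% (0.485 to 0.841%). These intervals overlapped widely. A further 8, 31 and 22 cells met every other part of the rule without a Ptprc UMI. Counting them gave 0.741% in bladder, 1.02% at 1 day and 0.908% at 7 days. With each mouse cell thinned to 2000 UMIs the rule gave 0.381, 0.216 and 0.302%, with bladder the highest.

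The 3 libraries held 93560608 to 135955678 UMIs in 8642 to 9548 barcodes. Myeloid cells had a median of 4635.50 UMIs in bladder, 9168.00 at 1 day and 12924.0 at 7 days, where the other mouse cells had medians of 7797.00, 15279.5 and 9497.00. Summed over cells, the groups compared here held 273318, 536371 and 606664 UMIs. Pairs of libraries shared 21, 30 and 114 barcodes, and 0 of the shared barcodes belonged to a myeloid cell. Scrublet called 2, 1 and 0 of the myeloid cells doublets.

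Levels of the rule genes describe the selected cells and are no check of the label, since these genes chose them. Lyz2, the lysozyme of macrophages and granulocytes, was at 14459 CPM in the bladder cells (CPM, UMIs per 1000000 summed mouse UMIs), 20424 at 1 day and 20822 at 7 days, against 12 to 44.2 in the other mouse cells. Csf1r was at 406, 556 and 511 CPM against 0.757 to 5.63 in the other cells. Tyrobp, the adaptor of activating myeloid receptors, was at 1903, 3119 and 3066 CPM. Ptprc itself was at 531 CPM in bladder, 205 at 1 day and 219 at 7 days. The sum over the 6 rule genes had medians of 236, 330 and 275 UMIs per 10000. Its lowest member stood at 10.7 in bladder, 53.6 at 1 day and 21.3 at 7 days, the next lowest at 24.0, 108 and 55.9, and 0 cells with Ptprc and 3 rule genes lay below the limit.

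RNA of other cell types was present in some of the selected cells. Urothelial marker genes, taken as at least 3 UMIs from at least 2 of 11 genes, were found in 11 of 44 bladder cells, 2 of 56 cells at 1 day and 5 of 54 at 7 days. Smooth muscle markers were found in 3, 33 and 16 cells and fibroblast markers in 3, 16 and 21. The summed urothelial list was at 3812, 518 and 155 CPM in the myeloid cells and at 16047, 982 and 3655 CPM in the other mouse cells of the same libraries. The smooth muscle list was at 1010, 455 and 213 CPM against 1914, 15048 and 11314, and the fibroblast list at 395, 358 and 359 against 7251, 2342 and 4381. The part of this RNA in the results below was not tested, except where cells that carry it were left out. Those cells were picked without thinning, so their choice depended on depth as well.

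The 7-day library held cells of separate depths. Of its 54 myeloid cells, 38 had at least 5000 UMIs, with a median of 14663.0, and 16 had fewer, with a median of 2022.00 and a maximum of 4196. The limit of 5000 was chosen after the values were seen. The 16 shallow cells held 36550 of the 606664 UMIs. Main results of the 7-day library are therefore given for the deep and the shallow cells as well as for all 54. Whether the 16 shallow cells came from the assembloids cannot be told from the files, and 0 of the 54 shared a barcode with a cell of another library.

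**Figure D1:**
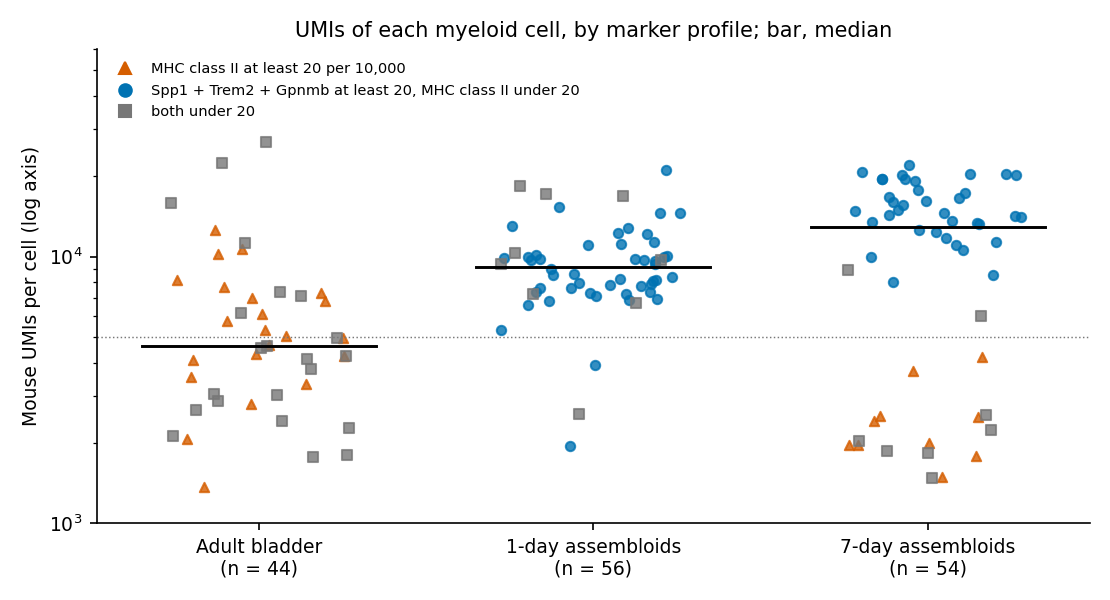
Mouse UMIs of each myeloid cell on a log axis, by library, with the median as a bar, a dotted line at 5000 UMIs and symbols for the marker profile. Of the 16 cells of the 7-day library under the line, 10 had at least 20 UMIs of MHC class II genes per 10000, and 36 of the 38 above it had at least 20 of Spp1, Trem2 and Gpnmb.

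The bladder cells carried macrophage or monocyte markers in varied combinations, and the 1-day cells all carried macrophage markers. Members were counted with at least 3 UMIs from at least 2 genes of a marker list, and a cell could meet several lists. The macrophage list (Adgre1, Mertk, C1qb and others) was met by 39 of 44 bladder cells (88.6%, interval 75.4 to 96.2%), 56 of 56 at 1 day (100%, 93.6 to 100%) and 50 of 54 at 7 days (92.6%, 82.1 to 97.9%). The monocyte list (Ly6c2, Ccr2, Plac8 and others) was met by 29 bladder cells (65.9%, 50.1 to 79.5%), 2 at 1 day (3.57%, 0.435 to 12.3%) and 14 at 7 days (25.9%, 15.0 to 39.7%). These intervals cover counting error over the cells of 1 library per group and do not test a difference between groups. The resident macrophage list (Lyve1, Folr2, Pf4 and others) was met by 20, 55 and 42 cells (45.5%, 98.2% and 77.8%). Thinned to 2000 UMIs per cell, the resident macrophage shares were 24.4, 65.5 and 46.8% and the monocyte shares 58.5, 0 and 8.51%, in the same order of libraries.

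Few of the selected cells met the lists of other immune lineages. The rule asks for 3 of 6 myeloid genes and can leave out lymphocytes and mast cells, so these counts do not measure their number. A further 31 cells with Ptprc in bladder, 0 at 1 day and 8 at 7 days reached the sum of the rule genes. They had under 3 of these genes and were left out. The neutrophil list was met by 5 bladder cells and 0 of the assembloid cells, which allows a share of cells meeting this list of up to 6.38% at 1 day and 6.60% at 7 days, not a limit on neutrophils. The dendritic cell list was met by 6, 0 and 3 cells and the mast cell list by 0 in each library. The lymphocyte list was met by 0, 0 and 2 cells. Thinned to 2000 UMIs per cell, 1 of 41 bladder cells met the neutrophil list and 3 of 41 the dendritic cell list.

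Cells were also sorted by C1q, by MHC class II and by Spp1, Trem2 and Gpnmb. Spp1 and the MHC class II genes used have some of the largest ratios below, so the counts largely restate those ratios cell by cell. The sets and their limits were not fixed before the values were seen. C1q cells had at least 3 UMIs of C1qb and C1qc, which with C1qa encode the chains of the complement initiator C1q. There were 12 such cells in bladder, 56 at 1 day and 43 at 7 days. Cells high for MHC class II had at least 20 UMIs per 10000 over Cd74, H2-Aa, H2-Ab1 and H2-Eb1. They numbered 22 in bladder, 0 at 1 day and 10 at 7 days, and all 10 were among the shallow cells.

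Cells high for Spp1, Trem2 and Gpnmb, by the same limit of 20 per 10000, numbered 2 in bladder, 47 at 1 day and 36 at 7 days, and all 36 were among the deep cells. In bladder, 9 of the 12 C1q cells were also high for MHC class II, as were both cells high for Spp1, Trem2 and Gpnmb. In the assembloid libraries 0 cells were high both for MHC class II and for Spp1, Trem2 and Gpnmb, and at 7 days 6 of the 10 cells high for MHC class II were C1q cells. The profile therefore went with depth within the 7-day library. It did not within bladder, where 12 of the 19 cells with at least 5000 UMIs were high for MHC class II, nor in the 3 shallow cells at 1 day, of which 0 were.

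**Figure D2:**
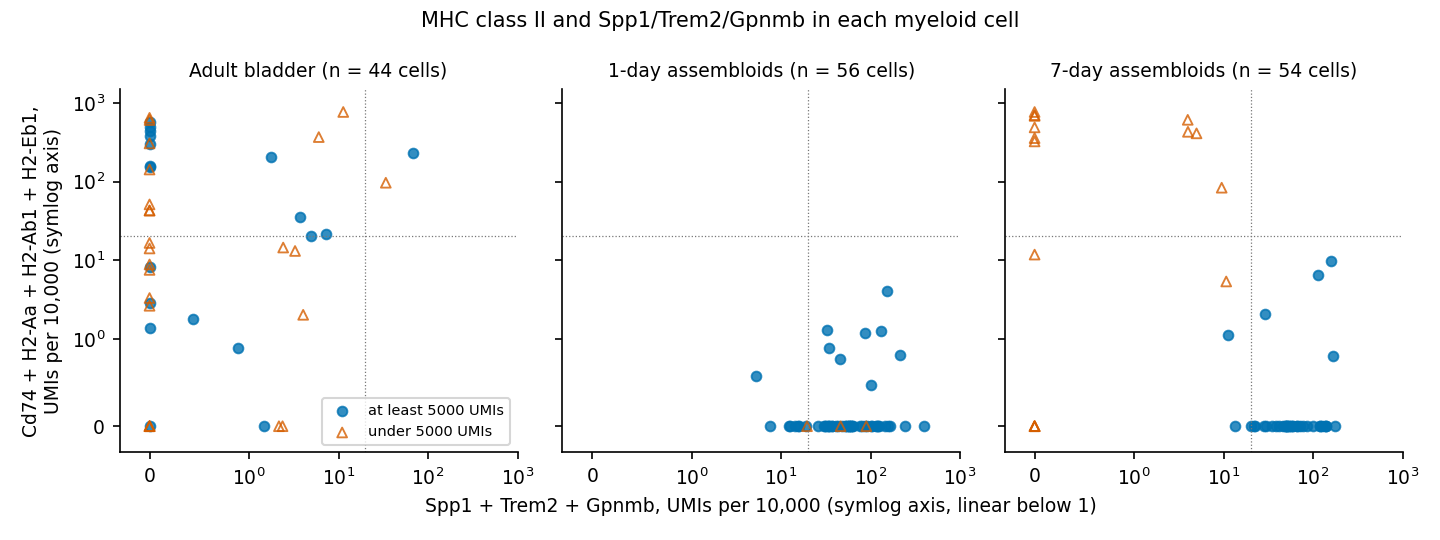
Each point is a myeloid cell, placed by its UMIs per 10000 of Spp1, Trem2 and Gpnmb (x axis) and of Cd74, H2-Aa, H2-Ab1 and H2-Eb1 (y axis), on axes that are logarithmic above 1 and linear below, with dotted lines at 20. The upper field holds 22 of 44 bladder cells, 0 of 56 cells at 1 day and 10 of 54 at 7 days, the last all under 5000 UMIs.

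MHC class II genes were far lower in the myeloid cells of 1-day assembloids than in those of bladder. All 8 measured genes of the list of 10 were at least 2-fold lower at 1 day, with a median log2 ratio of -6.79. A gene counted as measured if the higher of its libraries reached 50 CPM. A gene barely detected in either library was measured through the other alone, so it could be called in a single direction only. Over all 3547 genes measured in this comparison, 23.8% were at least 2-fold lower and 20% at least 2-fold higher, with a median of 0.07. Later counts of listed genes at 1 day against bladder are to be read beside these shares. In the other mouse cells the same 8 genes had a median of -2.39, at much lower levels.

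Cd74, the invariant chain that guides MHC class II through the cell, was at 7135 CPM in bladder, 11.2 at 1 day and 1045 at 7 days. It was detected in 35 of 44, 6 of 56 and 16 of 54 cells, and the log2 ratio of 1 day to bladder was -9.20 (-10.76 to -8.19). H2-Aa, the alpha chain of I-A, was at 2283, 1.86 and 353 CPM, with a ratio of -9.67 (-15.56 to -7.77). The beta chain genes H2-Ab1 and H2-Eb1 were at 2129, 5.59 and 298 CPM and at 1826, 1.86 and 267 CPM. For each of these 4 genes the bladder level was the highest and the 1-day level the lowest.

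The genes that load and assist these molecules were lower too, by less. H2-DMb1, a chain of the peptide exchanger H2-M, was at 274, 9.32 and 37.9 CPM, and its partner H2-DMa at 388, 106 and 110. Cd83 and Cd86, found on mature antigen-presenting cells, were at 311, 7.46 and 33.0 CPM and at 124, 24.2 and 26.4 CPM. H2-DMa had the smallest ratio of the 8, at -1.86 (-2.36 to -1.39).

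After thinning to 2000 UMIs per cell, Cd74 was detected in 75.6% of 41 bladder cells, 0% of 55 cells at 1 day (upper limit 6.49%) and 19.1% of 47 cells at 7 days. In urothelial cells of the same libraries the thinned shares were 0.103%, 0% and 0%. The thinned H2-Ab1 share at 1 day was 3.64% (0.443 to 12.5%) in myeloid cells and 4.12% in urothelial cells. The source of these UMIs was not tested.

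Within the 7-day library the MHC class II transcripts lay in the shallow cells. Cd74 was at 16553 CPM in these 16 cells and at 50.9 CPM in the 38 deep ones, and H2-Aa at 5773 and 5.26 CPM. Against bladder, all 8 measured genes were lower in the 54 cells together, with a median of -2.77, beside 23% of all genes lower and 19.0% higher. Averaged as CPM per cell, so that shallow cells weigh as much as deep ones, the median was -0.68, and after thinning -1.48. In the deep cells alone the 8 were also all lower, with a median of -5.94, beside 23.9% of all genes lower and 20.7% higher. In the shallow cells 5 of the 8 were higher than in bladder and 0 lower, with a median of 1.16, beside 26.2% of all genes higher and 12.5% lower. The 12 bladder C1q cells also held these transcripts, with Cd74 at 8859 and H2-Aa at 2559 CPM. Against these 12 cells all 8 genes were lower at 1 day, with a median of -7.24, where 23.5% of all genes were lower and 17.5% higher. The limits on depth and on C1q were both chosen after the values were seen. Without the cells that met a non-immune marker list the median at 1 day was -8.08.

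Promoters of MHC class II genes carry a conserved element, the Y box, whose core GATTGG is an inverted CCAAT box bound by NF-Y. RefSeq promoters of build GRCm38.p6 were searched on both strands for GATTGG in the 250 bases before each start site. Of 32851 promoters, 14.6% held it, and 5 of the 10 listed genes were in the table, of which 4 held it (H2-Aa, H2-Eb1, H2-DMb1 and H2-DMa). By gene, 16.6% held it in at least 1 promoter. It was in 7 of 8 matched MHC class I genes, in 8 of 12 of S phase and G2/M and in 5 of 12 of the lipid and Trem2 list described below, Spp1 among them. The last 100 bases before the start are shown for 3 MHC class II genes and for Spp1, the named gene with the highest ratio, to show that both hold the same letters. They run 5′ to 3′ on the gene's strand, and capitals mark the match on that strand nearest the start site. The H2-Eb1 stretch also holds a match on the other strand, which reads ccaatc here and is left in lower case.
H2-Aa, chr17:34287824-34287923, minus strand: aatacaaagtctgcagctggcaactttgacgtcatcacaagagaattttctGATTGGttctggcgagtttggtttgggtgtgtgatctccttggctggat
H2-Eb1, chr17:34305767-34305866, plus strand: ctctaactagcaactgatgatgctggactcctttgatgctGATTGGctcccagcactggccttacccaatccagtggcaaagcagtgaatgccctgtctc
H2-DMb1, chr17:34153091-34153190, plus strand: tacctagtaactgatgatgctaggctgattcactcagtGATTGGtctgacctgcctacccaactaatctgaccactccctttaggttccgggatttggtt
Spp1, chr5:104435011-104435110, plus strand: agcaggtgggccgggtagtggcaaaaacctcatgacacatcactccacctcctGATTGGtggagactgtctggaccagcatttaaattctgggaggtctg
The match in capitals began 49, 60, 62 and 47 bases before the start site in this order. A match describes the letters and is no evidence of binding.

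MHC class I genes, which present peptides of the cell's own proteins to CD8 T cells, were lower as well, by far less. Of 7 measured genes 5 were at least 2-fold lower at 1 day and 0 higher, with a median of -1.56. H2-D1 was at 2111, 716 and 770 CPM and H2-K1 at 1281, 373 and 430. B2m, the shared light chain, was at 1511, 612 and 707 CPM. The other mouse cells had a median of -2.42 for the same 7 genes, so this difference was not confined to the myeloid cells.

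Genes of monocytes, neutrophils and dendritic cells were also lower at 1 day. Of 10 measured monocyte genes, 9 were at least 2-fold lower at 1 day, and 8 of the 10 had 0 UMIs there. Those 8 counted as measured through bladder alone and could only be called lower, so the counts are a description. Ly6c2, the surface marker of classical monocytes, was at 220 CPM in bladder, 0 at 1 day and 46.2 at 7 days. Against a floor of 3 UMIs summed over the 1-day cells it was at least 39.2-fold lower. The 7-day value came from 2 cells, with 27 of 28 UMIs in 1 of them.

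Ccr2, the receptor that brings monocytes into tissue, was at 201, 0 and 41.2 CPM and in 20, 0 and 14 cells, which is at least 36.0-fold lower at 1 day. Plac8 was at 1094 CPM in 23 bladder cells, 5.59 at 1 day and 80.8 at 7 days. Ace and Treml4, expressed by non-classical monocytes, were at 128 and 95.1 CPM in bladder and at 0 at 1 day. For each of these 5 genes bladder had the highest level and 1 day was at or near 0.

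The 7-day values again lay in the shallow cells, where Ly6c2 was at 766 CPM, Ccr2 at 657 and Plac8 at 1259, against 0, 1.75 and 5.26 in the deep cells. In bladder, these genes were mostly outside the C1q cells, which held Ly6c2 and Plac8 at 0 and Ccr2 at 150 CPM.

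Neutrophil genes rested on few bladder cells. S100a8 and S100a9, the calprotectin subunits, were at 761 and 809 CPM in bladder, from 2 cells each. S100a9 had 0 UMIs in both assembloid libraries, at least 145-fold lower at 1 day, and S100a8 was at 5.59 and 16.5 CPM. Of the dendritic cell genes, Ccr7, the homing receptor of mature cells, was at 154 CPM from 1 bladder cell. Cd209a was at 150, 0 and 9.89 CPM and Clec10a at 98.8, 0 and 6.59, in 4 and 8 bladder cells.

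Alternative activation genes, which interleukin 4 and 13 induce in macrophages, were lower at 1 day in 7 of 8 measured cases. Their median log2 ratio was -7.10, or -4.49 with the genes at 0 placed at the floor of 3 UMIs. At 1 day 6 of the 8 had 0 UMIs, so they were measured through bladder alone and could only be called lower. Retnla was at 1796, 0 and 279 CPM, at least 321-fold lower at 1 day, but 377 of its 491 bladder UMIs came from 1 cell. Its 7-day UMIs came from 3 cells, with 123 of 169 in 1 of them. Mgl2, a lectin of dermal dendritic cells and macrophages, was at 249, 0 and 33.0 CPM, and Ear2 at 227, 0 and 9.89. Ear2 was spread over 19 bladder cells. Mrc1, the mannose receptor, was at 263, 123 and 115 CPM, with a ratio of -1.10 (-1.60 to -0.60). Against the bladder C1q cells 7 of 8 were lower and 1 higher, with a median of -7.60. In the deep 7-day cells 7 of 8 were lower than in bladder and 0 higher, with a median of -7.19. The shallow 7-day cells had 4 of 9 higher than bladder and 1 lower, with a median of 0.29. Beside these stand 26.2% of all genes higher and 12.5% lower in the shallow cells. Arg1, a classic gene of this state, had 0 UMIs in bladder and 11 and 19 UMIs in the assembloid cells, at 20.5 and 31.3 CPM.

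Macrophage identity genes were found in all 3 libraries. Adgre1, which encodes F4/80, was at 154, 203 and 155 CPM, and its ratio of 1 day to bladder was 0.39 (-0.12 to 0.95). Its thinned shares were 31.7, 30.9 and 34%, so the gene was detected alike at equal depth. Cx3cr1, the fractalkine receptor, was at 128, 321 and 260 CPM, and Aif1 at 194, 278 and 320. C1qb was at 1551, 3184 and 2502 CPM and was detected in 13, 56 and 43 cells. Other genes of the list were lower in assembloids. Cd14 was at 1200, 373 and 480 CPM, a ratio of -1.68 (-1.95 to -1.43), and Mrc1, given above, was lower as well.

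Against the 12 bladder C1q cells the list gave another picture. Those cells held C1qb at 6330 CPM, a gene that chose them, and Adgre1 at 344 CPM. Of 11 measured macrophage genes 4 were higher and 2 lower at 1 day against all bladder cells, and 0 higher and 5 lower against the C1q cells. The list holds C1qb and C1qc, which chose those cells, so these counts are a description.

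Resident macrophage genes did not behave as a group. Of 11 measured genes 3 were higher and 5 lower at 1 day against bladder, with a median of -0.94. The summed list was at 2517 CPM in bladder, 1980 at 1 day and 1835 at 7 days. Lyve1, a hyaluronan receptor of vessel-associated macrophages, was at 62.2, 1.86 and 0 CPM, and Cd163, the haptoglobin-hemoglobin scavenger, at 76.8, 0 and 1.65. F13a1 was at 417, 3.73 and 8.24 CPM, found in 18, 1 and 3 cells. These 3 were near 0 in the assembloid libraries.

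Folr2, the folate receptor of resident macrophages, was at 205, 162 and 114 CPM and Pf4 at 710, 675 and 577, close to the bladder level. Gas6, the bridging ligand for dying cells, was higher, at 84.2, 274 and 293 CPM, as were Stab1 at 128, 336 and 316 and Igf1 at 87.8, 218 and 173. Against the 12 bladder C1q cells 8 of 11 measured genes of this list were lower at 1 day and 0 higher, with a median of -2.77, and Pf4 and Folr2 were among those lower (2888 and 838 CPM in the C1q cells).

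**Figure D3:**
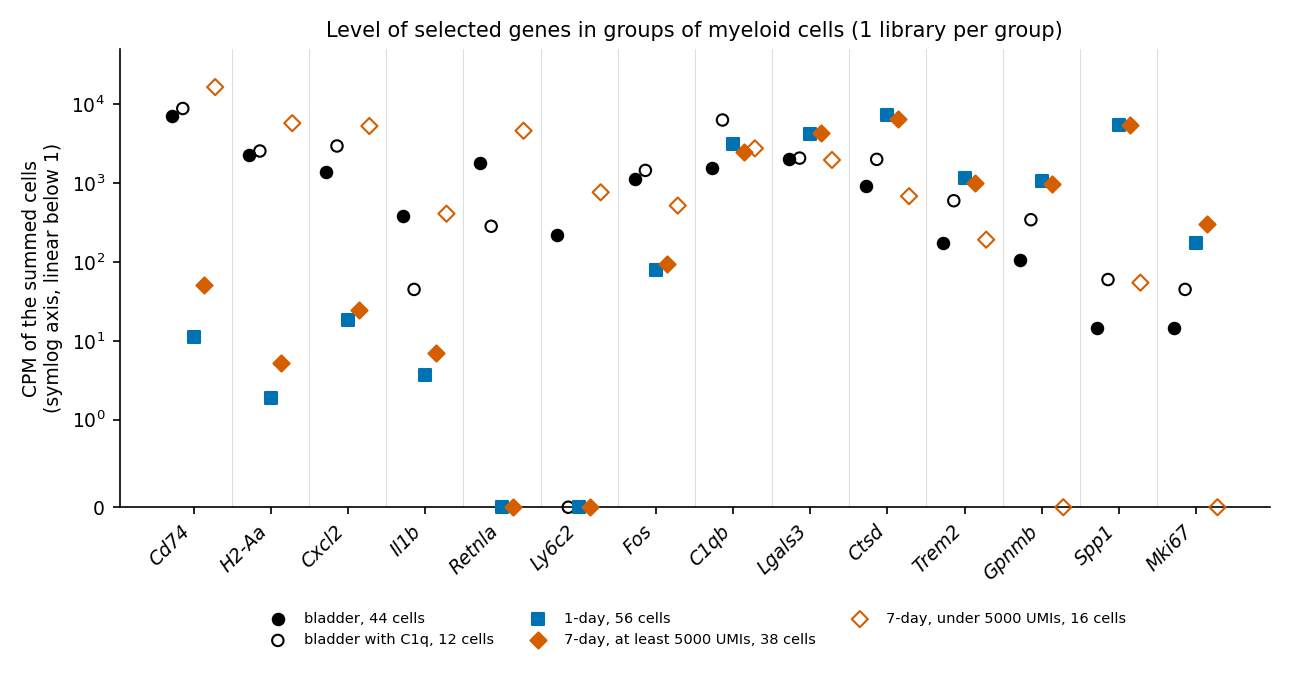
CPM of 14 genes summed over 5 sets of myeloid cells, on an axis that is logarithmic above 1 and linear below, with 1 library per group and no error bars. The shallow 7-day cells lie above the bladder cells for Cd74 (16553 against 7135 CPM) and Cxcl2 (5308 against 1394), and the deep 7-day cells near the 1-day cells, with Spp1 at 5481 and 5423 CPM against 14.6 in bladder.

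Genes of lipid handling and the Trem2 programme were higher at 1 day and in the deep 7-day cells, led by Spp1. Of 14 measured genes 8 were at least 2-fold higher at 1 day and 3 lower, with a median of 1.05, where the other mouse cells had -1.15. In the deep 7-day cells 7 of 14 were higher and 3 lower, and in the shallow ones 1 of 14 was higher and 4 lower, with a median of 0.06. Spp1 (chr5:104435118-104441050, mm10, plus strand) encodes osteopontin, a secreted phosphoprotein made by macrophages of injured tissue. It was at 14.6 CPM in bladder, 5423 at 1 day and 5154 at 7 days, with a ratio of 8.36 (7.18 to 10.41). All 4 bladder UMIs came from 1 cell, against 54 of 56 cells at 1 day and 38 of 54 at 7 days.

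Spp1 was also higher in the other mouse cells of assembloids, at 1.05, 819 and 766 CPM. Its thinned share in myeloid cells was 2.44% in bladder, 89.1% at 1 day and 76.6% at 7 days, and in urothelial cells 0, 7.23 and 3.88%. The myeloid shares at 1 and 7 days stood more than the counting error above those of urothelial cells.

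Trem2 (chr17:48346401-48354147, plus strand), a lipid receptor that signals through Tyrobp, was at 172, 1163 and 964 CPM, a ratio of 2.74 (2.33 to 3.22). It was found in every 1-day cell and in 13 bladder cells, and was at 1.67 to 3.14 CPM in the other mouse cells. Gpnmb (chr6:49036546-49070929, plus strand), a glycoprotein of lysosome-rich macrophages, was at 106, 1078 and 923 CPM, a ratio of 3.32 (2.81 to 3.94). Of its 29 bladder UMIs 22 came from 1 cell. The thinned Gpnmb shares were 7.32, 54.5 and 57.4%, beside 6.45, 21.9 and 10.8% of urothelial cells.

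Lipa, the lysosomal acid lipase, was at 69.5, 377 and 373 CPM, Fabp5 at 384, 1264 and 1485 and Lgals3, which encodes galectin 3, at 2023, 4260 and 4225. The list was not uniform. Apoe, the lipid carrier, was at 10402, 7733 and 6077 CPM and at 37608 in the bladder C1q cells, and 844 of its 2843 bladder UMIs came from 1 cell. Lpl was lower, at 209, 33.6 and 77.5 CPM, as was the fatty acid translocase Cd36 at 245, 57.8 and 130. Fabp4, at 834, 61.5 and 28 CPM, had 214 of 228 bladder UMIs in 1 cell.

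Lysosomal genes were higher at 1 day than in all bladder cells, in 6 of 14 measured cases with 0 lower. Ctsd (chr7:142375911-142388038, minus strand), which encodes the protease cathepsin D, was at 922, 7346 and 6196 CPM, a ratio of 2.99 (2.81 to 3.18). Ctsl, for cathepsin L, was at 198, 1628 and 1146 CPM, Ctsb at 1584, 4596 and 4444, and Grn, for progranulin, at 359, 1249 and 1010. Psap and Lamp2 stood slightly lower, at 1972, 1525 and 1507 CPM and at 395, 282 and 298.

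The median of this list was 0.90 against all bladder cells and -0.06 against the 12 C1q cells, where 2 genes were higher and 1 lower. The 2 were Ctsd and Ctsl, at 2005 and 314 CPM in the C1q cells, and these were named after their values were seen. The other mouse cells also had a higher lysosomal median, 0.72. The 2 of 14 are below the 17.5% of all genes higher in that comparison.

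Scavenger and Fc receptor genes were mixed, with 4 of 11 higher and 3 lower at 1 day. Msr1, scavenger receptor A, was at 58.5, 421 and 488 CPM, a ratio of 2.81 (2.12 to 3.68), and at 44.9 CPM in the bladder C1q cells. Colec12, a scavenger collectin, was at 11, 177 and 163 CPM. Fcgr3, a low-affinity IgG receptor, was at 293, 647 and 612 CPM and found in 28, 56 and 45 cells. The 3 lower genes were Cd163, Mrc1 and Cd36.

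The ferritin genes, which store iron, were higher at 1 day and in the deep 7-day cells. Fth1, ferritin heavy chain, was at 11532, 32409 and 34652 CPM, a ratio of 1.49 (1.44 to 1.55), and Ftl1, the light chain, at 8627, 22272 and 23385. Both were detected in every myeloid cell of each library. In the shallow 7-day cells Fth1 was at 16689 and Ftl1 at 12449 CPM, under 2-fold above bladder. In the other mouse cells Fth1 was at 3801, 3386 and 3703 CPM. Slc40a1, the iron exporter ferroportin, had 0 UMIs in bladder and was at 55.9 and 75.8 CPM in assembloids, at least 5.10-fold higher at 1 day. Hmox1, which degrades heme, went the other way, at 1815, 470 and 602 CPM. Of 7 measured genes 4 were higher and 3 lower.

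Matrix proteases and inhibitors had 6 of 9 genes higher at 1 day and 2 lower, with a median of 1.74. The median was -0.15 against the bladder C1q cells and 0.09 once cells that met a non-immune marker list were left out. Mmp12, macrophage elastase, was at 62.2, 442 and 432 CPM, from 3, 24 and 22 cells. Its bladder level was 239 CPM in the C1q cells, and without cells of the non-immune lists its ratio was -1.37. Adam8 was at 132, 451 and 468 CPM and at 59.9 in the C1q cells. Mmp19 was lower, at 150, 7.46 and 9.89 CPM. Timp1, a protease inhibitor, had 0 UMIs in bladder and was at 67.1 and 26.4 CPM, beside 11, 3238 and 1438 CPM in the other mouse cells.

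The inflammatory cytokine list had 3 measured genes, Il1b, Tnfaip3 and Il1rn, all lower at 1 day and in the deep 7-day cells. Only Il1b among them encodes an inflammatory cytokine. Over all 54 cells at 7 days 2 of 3 were lower, and in the shallow cells 3 of 7 were higher than in bladder and 0 lower. Il1b, interleukin 1 beta, was at 384, 3.73 and 31.3 CPM and in 23, 2 and 7 cells, a ratio of -6.37 (-9.75 to -4.80). It was at 410 CPM in the shallow and 7.02 in the deep 7-day cells. Tnfaip3, a brake of NF-kB signalling, was at 62.2, 1.86 and 9.89 CPM and Il1rn, the interleukin 1 receptor antagonist, at 80.5, 29.8 and 51.1. Tnf, below the level needed to be measured, was at 29.3, 39.2 and 26.4 CPM.

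Chemokine genes split. Of 14 measured ligands 4 were higher at 1 day and 6 lower. Cxcl2, a neutrophil attractant, was at 1394, 18.6 and 343 CPM, a ratio of -6.16 (-7.30 to -5.33), and in the 7-day library at 5308 CPM in shallow and 24.6 in deep cells. Of its 208 UMIs at 7 days 150 came from 1 cell. Cxcl10 was at 69.5, 0 and 0 CPM, and Ccl8 at 117, 3.73 and 0 with 28 of its 32 bladder UMIs in 1 cell.

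The 4 higher ligands were Ccl2, at 106, 231 and 336 CPM, Ccl7 at 40.2, 98.8 and 42.9, Ccl12 at 76.8, 158 and 218 and Cxcl16 at 124, 354 and 338. Ccl2, Ccl7 and Ccl12 attract monocytes. In the shallow 7-day cells 10 of 15 measured ligands were higher than in bladder and 3 lower. None of the 4 was higher against the bladder C1q cells, where 10 of 14 ligands were lower and 0 higher. The ratios of the inflammatory chemokine genes Ccl3 and Ccl4 were 0.27 (-0.40 to 1.00) and 0.35 (-0.07 to 0.79).

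Of 8 measured chemoattractant receptors 3 were higher (Cx3cr1, C3ar1 and C5ar1) and 4 lower at 1 day, Ccr2, Ccr7 and Cxcr4 among them. C3ar1, a complement peptide receptor, was at 76.8, 282 and 287 CPM but at 299 in the bladder C1q cells. Cxcr4 was at 146, 14.9 and 24.7 CPM.

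Growth factor receptors and transcription factors of the lineage had 1 of 13 genes higher and 6 lower. Spi1, which encodes the lineage factor PU.1, was at 362, 380 and 405 CPM, a ratio of 0.07 (-0.28 to 0.43), and Irf8 was higher at 73.2, 255 and 244. Cebpb was at 1990, 276 and 437 CPM, Klf4 at 648, 9.32 and 29.7 and Nr4a1, a factor of non-classical monocytes and an immediate early gene, at 231, 1.86 and 19.8. In the other mouse cells Klf4 was at 491, 83.3 and 179 CPM and Nr4a1 at 301, 26.7 and 72.4. Csf2ra, of the GM-CSF receptor, was at 249, 117 and 120 CPM.

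Immediate early genes, which respond within minutes to stimulation or tissue dissociation, were lower in all 15 measured cases at 1 day, with a median of -3.29. The other mouse cells had all 15 lower too, with a median of -2.71. Fos was at 1120, 78.3 and 119 CPM in myeloid cells and at 1753, 92.0 and 406 in the others. Hspa1a, an inducible heat shock gene, was at 2118, 3.73 and 178 CPM, a ratio of -8.83 (-12.20 to -7.29), and at 2709 CPM in the shallow 7-day cells. The part of cell handling in this difference was not tested. In the deep 7-day cells all 15 were lower than in bladder, with a median of -3.32. In the shallow ones 2 of 15 were lower and 0 higher, with a median of -0.28, beside 12.5% of all genes lower and 26.2% higher.

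Hypoxia and glycolysis genes were higher in 9 of 12 measured cases at 1 day, with 1 lower. Their median was 1.24 in myeloid cells and 1.65 in the other mouse cells. Gapdh was at 578, 1820 and 1751 CPM, Pgam1 at 154, 647 and 697, and Ldha, lactate dehydrogenase A, at 267, 794 and 709. The direction held against the bladder C1q cells, with 6 of 12 higher, 1 lower and a median of 1.12. In the deep 7-day cells 8 of 11 were higher than in bladder and 1 lower, with a median of 1.35. In the shallow ones 2 of 11 were higher and 1 lower, with a median of 0.26.

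Proliferation genes were higher at 1 day and in the deep 7-day cells, where 12 of 13 measured genes were higher than in bladder and 0 lower. In the shallow 7-day cells only 3 genes were measured, with 0 higher and 1 lower. Of 12 measured genes of S phase and G2/M 11 were higher at 1 day and 0 lower, with a median of 2.75, or 2.55 with genes at 0 placed at the floor. Mki67 was at 14.6, 175 and 285 CPM and in 2, 20 and 22 cells. Top2a was at 3.66, 170 and 190 CPM. Cells with at least 20 UMIs per 10000 of this list numbered 1 in bladder, 17 at 1 day and 16 at 7 days, all 16 of them deep.

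At 2000 UMIs per cell Mki67 was found in 2.44, 23.6 and 14.9% of myeloid cells and in 0.240, 1.76 and 0.740% of urothelial cells. The other mouse cells had a higher median too, 4.0, with Mki67 at 2.57, 55.6 and 45.4 CPM. Against the 12 bladder C1q cells 5 of 13 genes were higher, with a median of 0.78. Without the cells that met a non-immune marker list the median against bladder was 0.95.

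**Figure D4:**
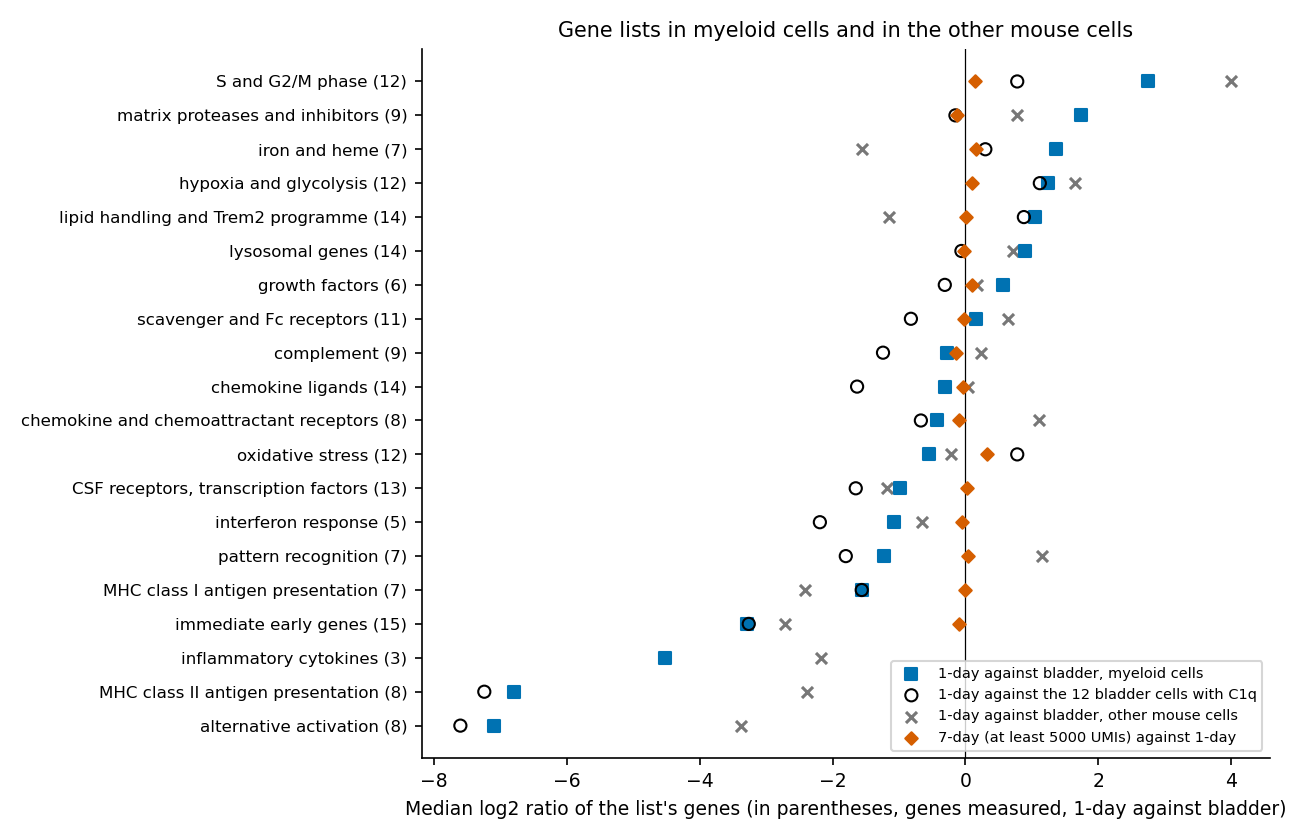
Median log2 ratio of each gene list for 1-day against bladder myeloid cells (squares), 1-day against the 12 bladder C1q cells (open circles), 1-day against bladder in the other mouse cells (crosses) and deep 7-day against 1-day myeloid cells (diamonds, lists with at least 3 genes). MHC class II lies at -6.79 and -7.24 in the first pair, the lysosomal list moves from 0.90 to -0.06, and the diamonds lie near 0.

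The myeloid genes with the highest and lowest ratios at 1 day added some outside these lists. Npy, neuropeptide Y, had 0 UMIs in the bladder cells and was at 132 CPM at 1 day and 89.0 at 7 days, in 21 and 17 cells, at least 12.1-fold higher at 1 day. Cxcl14 was at 7.32, 419 and 551 CPM, a ratio of 5.52 (3.97 to 8.90), with 82.6, 84.9 and 137 CPM in the other mouse cells. Fam20c, a kinase of secreted proteins that include osteopontin, was at 14.6, 440 and 354 CPM and at 8.10 to 14.1 in the other cells.

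Ch25h, cholesterol 25-hydroxylase, was at 11, 198 and 160 CPM. Kdm6b, a demethylase of histone H3 lysine 27, was at 344, 0 and 39.6 CPM and in 31, 0 and 15 cells, at least 61.5-fold lower at 1 day. The 7-day Kdm6b level was 520 CPM in the shallow and 8.77 in the deep cells. Each of these 5 genes was nearer its 1-day than its bladder level in the deep 7-day cells.

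The cells at 7 days and 1 day differed little once the shallow cells were set apart. Over the 2944 genes measured for all cells of both, 1.26% were at least 2-fold higher at 7 days and 1.05% lower, among them 4 of 5 MHC class II genes higher, with a median of 6.43. In the deep cells 0.645% of 2944 genes were higher and 1.05% lower. Of 14 lysosomal genes 0 differed by 2-fold, and of 14 lipid and Trem2 genes 1 was higher and 1 lower. Of 10 immediate early genes and 13 proliferation genes 0 differed. With all cells thinned to 2000 UMIs, which leaves far fewer counts per gene, 13.3% of genes were higher and 9.70% lower.

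Spp1 had a ratio of 0.02 between deep 7-day and 1-day cells, Trem2 of -0.20, C1qb of -0.36 and Ctsd of -0.17. Ccl9, a chemokine of macrophages, was at 237 CPM at 1 day and 491 in the deep 7-day cells, a ratio of 1.05. Cd36 was at 57.8 and 130 CPM, a ratio of 1.15, and Lyz1, a lysozyme gene next to Lyz2 with a similar sequence, at 31.7 and 235 CPM. Reads of Lyz1 and Lyz2 could be split by the counting, so the Lyz1 value is uncertain.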

How the data were processed

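Single cells were measured with the 10x Genomics 3′ kit, version 3, in 3 libraries. The values deposited are raw UMI counts for each barcode and gene, made with Cell Ranger 3.1.0 per the file headers. The submitters' processing notes name the builds GRCh38, mm10 and hg38, and feature IDs carry a human or mouse prefix. The sources used here do not state how barcodes were called as cells. Gene positions came from a GENCODE annotation of mm10 for 401 of 401 gene IDs, and promoters from RefSeq, GRCm38.p6.

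Groups were taken from the labels. Counts of myeloid cells were summed per library, scaled to CPM of their mouse UMIs, and compared as log2 ratios with 0.5 counts added. Exact conditional binomial 95% intervals were computed for ratios and Clopper-Pearson ones for shares. A gene counted as measured if the higher of its libraries reached 50 CPM, and as higher or lower from 2-fold. The scripts were tested on simulated data. Tools were scanpy 1.11.5, scipy 1.17.1, numpy 2.4.6, pandas 2.3.3 and matplotlib 3.10.9 under Python 3.11.15, with edgeR 4.0.16 for scaling factors only. Urothelial reference cells had at least 20 UMIs per 10000 over the urothelial list from at least 3 genes, and no Ptprc. Thinning drew 2000 UMIs per cell and left out shallower cells, 3 in bladder, 1 at 1 day and 7 at 7 days among myeloid cells. Doublets were called by Scrublet per library and kept.

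The selection rule, the 20 programme lists and the 15 marker lists were chosen with earlier results of these data known. Named genes were the 10 highest and 10 lowest ratios per comparison among genes whose higher library reached 100 CPM, 2-fold above its other mouse cells, up to 4 genes per list by size of ratio, and the rule and marker genes. Mitochondrial, ribosomal, hemoglobin, sex-linked and predicted genes were not named. Other listed genes were named after their values were seen, and a few listed genes are not reported here. The alternatives tried were other limits on CPM, genes, mitochondrial UMIs, the myeloid sum and the marker lists, and mean CPM per cell, TMM scaling, thinning, and cells left out for doublet calls, shared barcodes or other markers.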

Additional observations from a re-analysis of the deposited data

Results flagged for a closer look

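Cells that met every part of the rule except Ptprc belong to no comparison of the report, and they carried myeloid transcripts. There were 8 such cells in bladder, 31 at 1 day and 22 at 7 days, with medians of 3489.50, 7728.00 and 2571.50 UMIs. Their sum over the 6 rule genes had medians of 219, 300 and 239 UMIs per 10000. Of the 8 bladder cells 6 carried C1q and 5 were high for MHC class II, with 0 high for Spp1, Trem2 and Gpnmb. At 1 day 31 carried C1q, 0 were high for MHC class II and 27 were high for Spp1, Trem2 and Gpnmb. At 7 days 15 carried C1q, 7 were high for MHC class II and 7 for Spp1, Trem2 and Gpnmb. The members with Ptprc had it at 531, 205 and 219 CPM, and the part of depth and of the Ptprc level in these numbers was not tested.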

How the results depend on the processing

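No paired analysis was possible because each group had 1 library and the labels carry no replicate numbers. The limits of at least 5000 UMIs, the selection of C1q cells and the rule without Ptprc were chosen after seeing the data. The limit of 20 UMIs per 10000 and the sets of genes it was applied to were not fixed beforehand. The share of genes at least 2-fold higher or lower against bladder stayed within 1.5 times its value under every alternative run. MHC class II medians at 1 day against bladder ran from -8.35 to -5.22, Cd74 from -11.49 to -9.16 (from -7.11 to -0.66 at 7 days against bladder and from 2.07 to 9.40 at 7 days against 1 day), Spp1 from 6.33 to 8.95 and the immediate early median from -3.48 to -3.11. The cause of the changes below was not tested, apart from the loss of cells or counts that thinning and each exclusion bring.

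The small share of genes higher at 7 days than at 1 day, 1.26%, was 0.645% with deep 7-day cells, 0.717% with cells of at least 5000 UMIs in all libraries, 3.45% from 20 CPM, 7.61% by mean CPM per cell, 13.3% after thinning and 9.04% without cells of non-immune lists, which left 30, 17 and 28 cells. The share lower, 1.05%, was 0.680% without doublet calls, 0.571% from 200 CPM, 3.78% from 20 CPM, 2.55% by mean CPM per cell, 9.70% after thinning and 9.57% without cells of non-immune lists.

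Applied to thinned cells, the rule selected 0.381% of mouse cells in bladder, 0.216% at 1 day and 0.302% at 7 days, and without its Ptprc condition 1.02% at 1 day and 0.908% at 7 days. With 5 UMIs from 3 genes, and after thinning, the resident macrophage share of bladder cells was 29.5 and 24.4%, the neutrophil share 4.55 and 2.44% and the dendritic cell share 4.55 and 7.32%. At 1 day the monocyte share was 0% under both. At 7 days the monocyte share was 16.7 and 8.51%, the dendritic cell share 0 and 2.13%, the lymphocyte share 1.85 and 2.13%, and the resident macrophage share after thinning 46.8%.

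Some medians and genes changed sign. From 200 CPM, the 1-day medians against bladder were 0.44 for pattern recognition and 0.05 for interferon response. Among C1q cells the matrix protease median was -0.15, C3ar1 -0.12, Fabp4 3.06, Gclc 0.36 and Gsr 2.88. Without cells of non-immune lists Ero1l was -0.27 and Mmp12 -1.37, and with cells of the macrophage list only Fabp4 was 0.49. At 7 days against bladder, among C1q cells, S100a8 was 1.28, C3ar1 -0.02, Fabp4 1.53, Stab1 -0.64, Gclc 0.73 and Txnrd1 0.85, and S100a8 was 2.96 with cells of the macrophage list only. At 7 days against 1 day, H2-Eb1 was -0.09 with deep 7-day cells and -0.11 with cells of at least 5000 UMIs in all libraries, and Ifi27l2a -0.00 with deep 7-day cells. Ccl5 was 0.18 without cells of non-immune lists and 0.09 by mean CPM per cell. Fabp4 was 0.26 without doublet calls, 3.67 without cells of non-immune lists, 0.85 after thinning and 0.76 by mean CPM per cell.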

Other observations

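The other mouse cells of each library held transcripts of ligands of myeloid receptors at different levels. Csf1, a ligand of CSF1R, was at 11.3 CPM in the other cells of bladder, 332 at 1 day and 229 at 7 days, a log2 ratio of 4.88 (4.79 to 4.97) at 1 day against bladder. Il34, the second ligand of CSF1R, was at 7.57, 1.93 and 2.14 CPM. The monocyte attractants Ccl2 and Ccl7 were at 7.70, 119 and 214 CPM and at 4.20, 81.7 and 106 CPM. Csf3, the neutrophil growth factor G-CSF, was at 4.27, 0.625 and 1.38 CPM, and Cd200, an inhibitory ligand of macrophages, at 52.5, 11.4 and 19.4 CPM. Cx3cl1, the ligand of CX3CR1, was at 5.98, 7.28 and 19.9 CPM. The genes were chosen with earlier results of these data known, and a relation to the myeloid cells was not tested.

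At 1 day against bladder, of 9 measured complement genes 4 were higher and 4 lower, with a median of -0.27. C1qb, C1qc, C3ar1 and C5ar1 were the higher ones, and C3 and C4b were among the lower ones, at 65.9 and 54.9 CPM in bladder and 1.86 and 0 at 1 day. Of 7 pattern recognition genes 1 was higher and 4 lower, with a median of -1.23. The higher one was Clec4n, which encodes the fungal receptor dectin 2, at 54.9, 261 and 247 CPM, and Cd14, the lipopolysaccharide co-receptor, was at 1200, 373 and 480 CPM.

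Of 5 interferon response genes 0 were higher and 3 lower, with a median of -1.07, and in the shallow 7-day cells 5 of 8 were higher than in bladder and 0 lower. Of 12 oxidative stress genes 0 were higher and 5 lower, with a median of -0.55, and Slc7a11, the cystine transporter, was at 754, 3.73 and 51.1 CPM. Against the bladder C1q cells 5 of 10 oxidative stress genes were higher and 1 lower. Of 6 growth factor genes 3 were higher (Igf1, Gas6 and Grn) and 2 lower, Hbegf and Areg. Their median was 0.57, and -0.47 without the cells that met a non-immune marker list.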
